A study of Mus musculus with 9 samples.

Results

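RNA levels of 10 genes of the Wnt pathway were examined in mouse skeletal muscle and its cultured precursor cells: the 3 ligands Wnt9a, Wnt4 and Wnt5a, the 4 Frizzled receptors Fzd1, Fzd2, Fzd4 and Fzd7, and the 3 secreted inhibitors Sfrp1, Sfrp2 and Dkk3. They were 10 of 46078 genes listed for cultured cells and of 38293 listed for muscle tissue. Of these genes, 8 were picked for their family. Wnt9a and Fzd1 were picked on changes seen in these libraries, so their differences are given as a description without a test. A further 94 genes of the pathway were examined beside them.

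Wnt proteins are secreted, lipid-modified ligands that bind Frizzled receptors at the cell surface. Together with the coreceptors Lrp5 or Lrp6 they stabilize β-catenin, which drives target genes with TCF/LEF factors, whereas other branches act on cell polarity and calcium. SFRP proteins bind Wnt ligands outside the cell, and Dickkopf proteins act at the coreceptors, with Dkk3 as a divergent member of that family. In muscle, the pathway is known for its roles in embryonic myogenesis, in satellite cells and in regeneration.

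The gastrocnemius muscle (GAS) of female C57BL/6 mice of 8 to 12 weeks (C57Bl6/J in the methods of the study) was sequenced in 3 biological replicates, and primary C57BL/6 cells in 2 per group. Myoblasts (MB) are the proliferating precursors of muscle fibers. Myotubes (MT) formed from them during 3 days in medium with little serum. In the fourth group, MB received 10 mM sodium-L-lactate in PBS, and control cells received PBS. No gene was altered in any group, all of which share the C57BL/6 background. The labels call the libraries biological replicates without naming animals or cultures, so p-values measure the spread between these libraries, which may be technical. Poly(A) RNA was the input for GAS, whereas cultured cells were processed with Smart-seq2, which amplifies full-length cDNA by PCR. These kinds of library were scaled separately, so GAS was not tested against cultured cells and levels set side by side across them are a description.

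Between 19307793 and 19941574 reads per library were counted on genes in GAS and between 5198247 and 10839516 in cultured cells. A count of 3, taken here as the limit of detection, corresponds to at most 0.155 CPM (counts scaled to a common library size) in GAS and to between 0.277 and 0.577 CPM in culture, covering counting error only. In MT replicate 1, 28599 genes had a count, against 17965 in MT replicate 2 and 15548 to 17315 in the 4 MB libraries. The 6 myoblast markers were above 3 counts in every library. They summed to 2848 and 1370 CPM in MB, 2982 and 1668 CPM in lactate-treated MB, 2598 and 4457 CPM in MT and 2470 to 2534 CPM in GAS. This list therefore did not set MB apart from MT or GAS. The 8 myotube markers summed to 12170 and 14750 CPM in MT, against 106 to 257 CPM in control and lactate-treated MB. Of 12 fibroblast markers, 9 were above 3 counts in both MT libraries, where they summed to 15050 and 27240 CPM, against 6 in MB with 357 and 888 CPM. Lum, Dpt and Tcf21 were at 0 in MB, and Tcf21 alone was at 0 in MT. Endothelial, mural, Schwann, tendon and immune markers summed to at most 75.9 CPM per list in any cultured library. In GAS, these 5 lists reached 20.4 to 613 CPM, and 12 fibroblast markers summed to 1455 to 1623 CPM.

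Promoter windows are printed for the members picked on their changes, Wnt9a and Fzd1, and for Wnt4 and Fzd7, the ligand and the receptor with the highest level in GAS. Each line holds the 250 bases before the transcription start used by its source, RefSeq promoters of build GRCm38.p6 (mm10), 5′ to 3′ on the strand of the gene. These starts differ from the gene bounds of GENCODE M21 given below. By those bounds, the Wnt4 window lies partly within the gene, and the windows of Fzd1 and Fzd7 end some way before it. Such windows were found for 6 of the 10 members. Wnt5a, Fzd2, Sfrp1 and Dkk3 are named only. Capitals mark a match to CTTTGA, a form of the core bound by TCF/LEF factors, or to CAGCTG, an E-box of the kind bound by myogenic factors, on either strand.
Wnt9a, chr11:59306680-59306929, plus strand: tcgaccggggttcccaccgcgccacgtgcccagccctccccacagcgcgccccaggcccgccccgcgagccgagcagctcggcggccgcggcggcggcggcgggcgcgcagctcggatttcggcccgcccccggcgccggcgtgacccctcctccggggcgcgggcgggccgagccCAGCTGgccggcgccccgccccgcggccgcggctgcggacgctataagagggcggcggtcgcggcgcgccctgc
Wnt4, chr4:137277385-137277634, plus strand: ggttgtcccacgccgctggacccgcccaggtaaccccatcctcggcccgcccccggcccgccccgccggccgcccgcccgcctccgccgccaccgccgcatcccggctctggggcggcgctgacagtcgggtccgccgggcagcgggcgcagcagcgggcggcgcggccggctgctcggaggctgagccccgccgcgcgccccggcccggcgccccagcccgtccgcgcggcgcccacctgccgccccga
Fzd1, chr5:4758217-4758466, minus strand: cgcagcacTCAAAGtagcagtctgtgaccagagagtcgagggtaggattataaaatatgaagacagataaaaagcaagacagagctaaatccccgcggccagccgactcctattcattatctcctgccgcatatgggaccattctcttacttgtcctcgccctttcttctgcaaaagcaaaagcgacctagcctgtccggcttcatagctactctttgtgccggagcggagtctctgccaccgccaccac
Fzd7, chr1:59481897-59482146, plus strand: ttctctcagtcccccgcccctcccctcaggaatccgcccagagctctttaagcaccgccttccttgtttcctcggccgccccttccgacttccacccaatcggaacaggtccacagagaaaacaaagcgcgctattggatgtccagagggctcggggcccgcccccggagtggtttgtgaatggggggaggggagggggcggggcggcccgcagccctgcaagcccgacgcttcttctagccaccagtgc
Among all 32851 promoters of this length, 13.8% hold CTTTGA and 13.0% hold CAGCTG. The windows of Fzd1, with 1 CTTTGA read on the opposite strand at position -242 from the start, and of Wnt9a, with 1 CAGCTG at -74, were the only ones of the 6 members with a match. A match is a description of letters and not of binding. Other forms of the TCF/LEF core were not searched for, so a window without a match may hold them. The windows of Wnt9a and Wnt4 were 84.4% and 85.2% G and C, above 99.8% and 99.9% of all promoters, against 51.2% for Fzd1 and 65.2% for Fzd7.

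Among the ligands, Wnt9a had the highest mean level of the 10 genes in MT, Wnt4 was found in GAS and hardly in culture, and Wnt5a was higher in both MT libraries than in MB. Wnt9a, known for its part in joint formation and in blood stem cell development, lies at chr11:59306928-59333552 (mm10, GENCODE M21, ENSMUSG00000000126) and has 4 exons in its longest transcript. It had 40 and 37 counts in MB, 18 and 30 in lactate-treated MB, 167 and 462 in MT, and 273, 260 and 237 in GAS. Divided by library size and exonic length, its level was 1.57 and 1.27 RPKM in MB and 4.00 and 17.0 RPKM in MT. Both MT libraries lay above both MB libraries, and MT replicate 2 stood far above replicate 1. The level of 10.5 ± 9.18 RPKM (SD, n = 2) in MT therefore has an error nearly as large as the mean. The fitted log2FC of Wnt9a was 2.87, and it was 1.30 without MT replicate 2. In GAS it was at 3.94 ± 0.24 RPKM (SD, n = 3), above its level in MB and near that of MT replicate 1.

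Wnt4, a ligand of kidney and gonad development that is also expressed at the neuromuscular junction, lies at chr4:137277489-137299726 (ENSMUSG00000036856). It was counted 2 times and 1 time in MB, 1 time and 2 times in lactate-treated MB, and 8 and 21 times in MT, and was left out of the test by the filter on low counts. Both MT libraries lay above both MB libraries. From summed counts of 29 and 3, MT was 7.66-fold higher than MB, with a 95% interval of 2.37 to 39.3 by the exact binomial method, which covers counting error only. In GAS, 789, 802 and 749 reads were counted, and Wnt4 was the ligand with the highest level of all 19, at 9.50 ± 0.23 RPKM (SD, n = 3). The highest value in culture was 0.613 RPKM, in MT replicate 2.

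Wnt5a, best known for signalling independent of β-catenin in limb and axis outgrowth, lies at chr14:28504750-28527448 (ENSMUSG00000021994). It had 11 and 4 counts in MB, 70 and 71 in MT, and 104, 110 and 92 in GAS. Its level was 0.184 and 0.0583 RPKM in MB and 0.713 and 1.11 RPKM in MT, so the groups did not overlap. The log2FC was 2.89, with an SE of 0.88 and an adjusted p of 0.0459 in the quasi-likelihood test of edgeR (Benjamini-Hochberg adjustment over all genes tested). Wnt5a passed the filter on low counts through MT alone, which by itself favours a higher level there, so the call adds no independent evidence of a difference. The call was kept under 5 and lost under 7 of 12 other settings, with log2FC between 2.23 and 3.80 and adjusted p between 0.00771 and 0.301, and it was lost without MT replicate 2 and without either MB replicate. Its exons overlap Gm2670 on the opposite strand over 358 bases, and as the use of strand in counting is not given in the sources used here, reads of that stretch cannot be assigned to one gene.

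**Figure D1:**
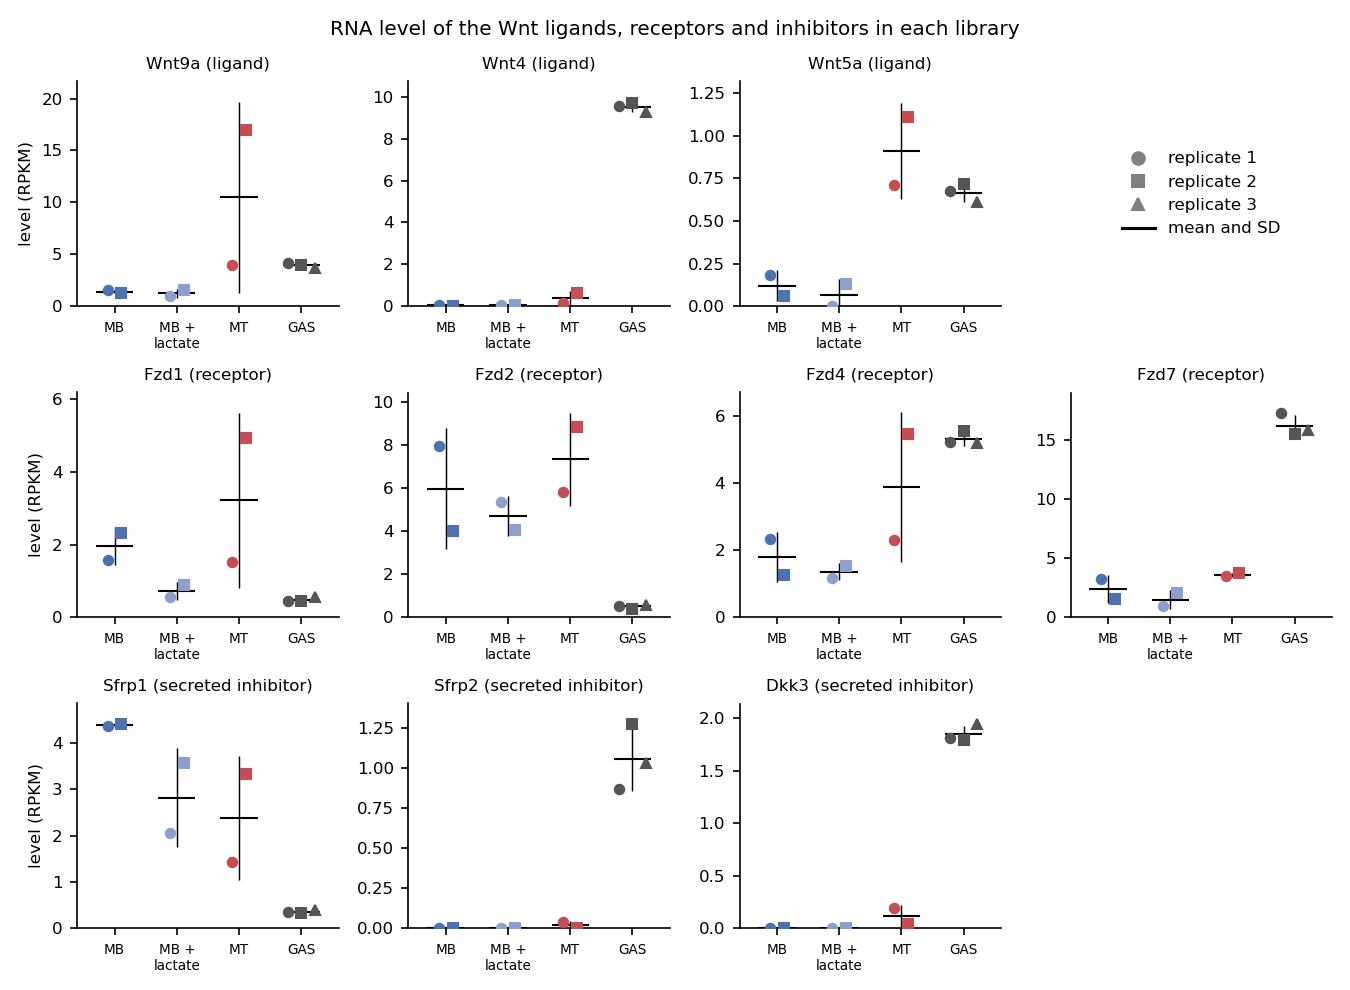
RNA level (RPKM, linear axes from 0) of the 10 members in MB, lactate-treated MB, MT and GAS, with a symbol per library and the mean and SD in black. Wnt4, Fzd7, Sfrp2 and Dkk3 were highest in GAS, Fzd2 and Sfrp1 were higher in culture than in GAS, and the MT replicates of Wnt9a were 4.00 and 17.0 RPKM.

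The 4 Frizzled receptors were detected in every library, and none of those tested passed the thresholds between MT and MB. The highest receptor differed between culture and tissue, with Fzd2 leading in MB and MT and Fzd7 in GAS. Fzd1 (chr5:4753839-4758035, ENSMUSG00000044674), Fzd2 (chr11:102604396-102608058, ENSMUSG00000050288) and Fzd7 (chr1:59482424-59486955, ENSMUSG00000041075) are close relatives within the family, each with a single exon. Fzd4 (chr7:89404355-89413134, ENSMUSG00000049791) has 2 exons and is also the receptor of norrin in the growth of retinal vessels.

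Fzd2 had 223 and 128 counts in MB, 267 and 265 in MT, 111 and 87 in lactate-treated MB, and 38, 29 and 42 in GAS. In RPKM, the MB libraries were at 7.96 and 3.99 and the MT libraries at 5.81 and 8.85, so the groups overlapped. The log2FC of MT against MB was 0.28 (SE 0.54, edgeR adjusted p = 0.755), and it turned to -0.23 without MT replicate 2 and to -0.19 without MB replicate 2. In GAS, Fzd2 was at 0.507 ± 0.0975 RPKM (SD, n = 3).

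Fzd7, described as the Wnt7a receptor of satellite cells, had 112 and 61 counts in MB, 197 and 138 in MT, and 1543, 1387 and 1384 in GAS. Its MT libraries, at 3.46 and 3.73 RPKM, lay above the MB libraries at 3.23 and 1.54 RPKM, by a narrow margin over MB replicate 1. The log2FC was 0.58 (SE 0.58, edgeR adjusted p = 0.523). In GAS its level was 16.2 ± 0.936 RPKM (SD, n = 3), the highest of the 10 members, above 89.0% of the 15703 protein-coding genes with a count there.

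Fzd4 had 120 and 75 counts in MB and 194 and 301 in MT. At 2.33 and 1.27 RPKM in MB and 2.30 and 5.48 RPKM in MT, the groups overlapped through MT replicate 1. The log2FC was 1.09 (SE 0.60, edgeR adjusted p = 0.233), and it was 0.16 without MT replicate 2. In GAS, with 692, 735 and 674 counts, Fzd4 was at 5.32 ± 0.196 RPKM (SD, n = 3). Endothelial cells express Fzd4, and the 8 endothelial markers summed to 215 to 232 CPM in GAS and to 6.96 and 16.9 CPM in MB, where Cdh5, Kdr, Tek and Tie1 were at 0. Their part in the level of Fzd4 was not tested, and in bulk samples fewer cells of a type and less RNA per cell cannot be told apart.

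Fzd1 had 51 and 85 counts in MB, 80 and 169 in MT, and 37, 38 and 45 in GAS. At 1.59 and 2.31 RPKM in MB and 1.52 and 4.93 RPKM in MT, the groups overlapped. The fitted log2FC of MT against MB was 0.70, and it was -0.55 without MT replicate 2. In GAS it was at 0.487 ± 0.0592 RPKM (SD, n = 3), which overlapped the level of Fzd2 there.

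Shares of the summed RPKM of all 10 Frizzled receptors show how the receptor set was made up. Fzd2 took 42.4% and 30.8% in MB, 36.1% and 32.9% in MT, and 1.08% to 1.78% in GAS. Fzd7 took 17.2% and 11.9% in MB, 21.5% and 13.8% in MT, and 41.8% to 50.3% in GAS. Fzd9, a receptor with a role at the neuromuscular junction and not among the members, came next in GAS, with 24.4% to 35.5% and a level of 10.3 ± 2.56 RPKM (SD, n = 3), against 0.203 RPKM in MB. Its share was 0.303% and 2.69% in MB and 2.16% and 4.36% in MT. The summed level of all Frizzled receptors was 15.9 ± 4.13 RPKM in MB (SD, n = 2), 21.5 ± 7.66 RPKM in MT (SD, n = 2) and 34.9 ± 1.97 RPKM in GAS (SD, n = 3).

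The ligands showed a different leading gene in each kind of sample. Wnt9a took 21.5% and 26.4% of the summed RPKM of 19 ligands in MB, 29.7% and 77.5% in MT, and 23.8% to 25.7% in GAS. Wnt4 took 59.1% ± 0.846 (SD, n = 3) in GAS and at most 2.80% in MT. In MB, Wnt7b led with 68.2% and 59.2%. In MT replicate 1, the level of Wnt9a itself was lower than in MT replicate 2, as was its share. Wnt3a, named after its values were seen, took 20.1% of the ligands in MT replicate 1 and had no count in MT replicate 2.

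**Figure D2:**
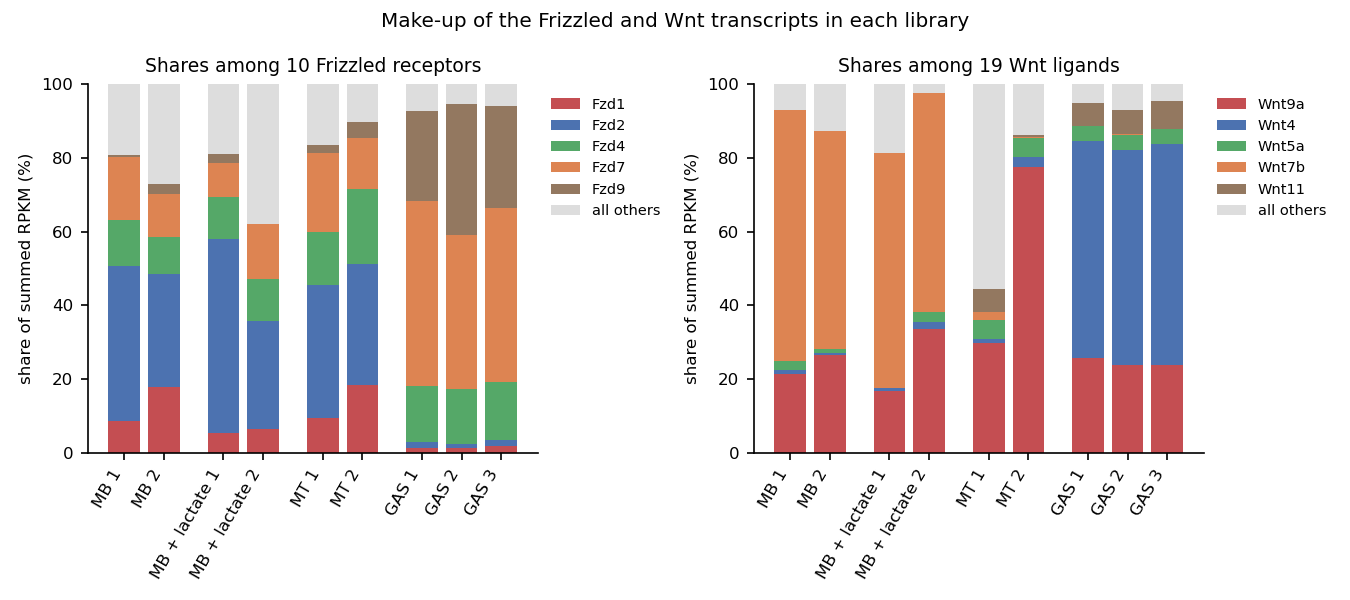
Shares (%) of the summed RPKM of 10 Frizzled receptors (left) and 19 Wnt ligands (right) in each library, drawn as stacked bars to 100%, with the genes not named in gray. Fzd2 had the highest share in each cultured library, Fzd7 and Fzd9 filled most of the GAS bars, and Wnt7b, Wnt9a and Wnt4 were the ligands with the highest share in MB, MT replicate 2 and GAS.

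The inhibitors among the members split into a gene of cultured cells and genes of tissue. Sfrp1, which binds Wnt ligands outside the cell, lies at chr8:23411502-23449632 (ENSMUSG00000031548). It had 146 and 169 counts in MB, 79 and 119 in MT, and 31, 29 and 33 in GAS. At 4.36 and 4.41 RPKM, the MB libraries lay above the MT libraries at 1.44 and 3.33 RPKM. The log2FC of -0.90 (SE 0.58) did not pass the threshold (edgeR adjusted p = 0.313). In GAS, Sfrp1 was the lowest of the 10 members at 0.362 ± 0.0273 RPKM (SD, n = 3).

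Sfrp2, a relative of Sfrp1 expressed by fibroblast-like cells of many tissues, lies at chr3:83766321-83774316 (ENSMUSG00000027996). It had 1 count in MT replicate 1 and 0 in the other cultured libraries. In GAS it had 37, 54 and 43 counts, or 1.06 ± 0.202 RPKM (SD, n = 3). Dkk3 (chr7:112116017-112159057, ENSMUSG00000030772) had 0 counts in the 4 MB libraries, 8 and 1 in MT and 120, 119 and 126 in GAS, where it reached 1.85 ± 0.0801 RPKM (SD, n = 3). Neither gene was tested, and their mean level in MT was below the limit of 3 counts in an MB library, so no fold is given. Beside these 2 genes, 11 of 12 fibroblast markers and all 6 mural markers were above 3 counts in every GAS library, and their part in the levels of Sfrp2 and Dkk3 was not tested. Sfrp2 overlaps Gm26771 on the opposite strand over 347 bases.

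Within GAS, the 10 members came in the order Fzd7, Wnt4, Fzd4, Wnt9a, Dkk3, Sfrp2, Wnt5a, Fzd2, Fzd1 and Sfrp1 by RPKM, and among neighbours only Fzd2 and Fzd1 overlapped in their ranges. In MB the order began with Fzd2 and Sfrp1, which overlapped, followed by Fzd7, Fzd1, Fzd4 and Wnt9a, each overlapping the next. In MT it ran from Wnt9a and Fzd2 through Fzd4, Fzd7, Fzd1 and Sfrp1 to Wnt5a, Wnt4, Dkk3 and Sfrp2. Among these, Fzd2 and Fzd4, Sfrp1 and Wnt5a, and Wnt5a and Wnt4 did not overlap. At 5.97 ± 2.81 RPKM (SD, n = 2), Fzd2 exceeded 60.5% of the 13698 protein-coding genes with a count in MB, and in MT Wnt9a exceeded 79.3% of 18674. The 2 percentages cannot be compared, as more genes had a count in MT. Fzd2 exceeded 74.0% there, with a log2FC of 0.28 against MB. The percentage of Wnt9a rests on a mean of 10.5 ± 9.18 RPKM (SD, n = 2).

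Of the 8 members picked for their family, 5 were tested. Both MT libraries lay above both MB libraries for 2 of these 5, Wnt5a and Fzd7, and below for 1, Sfrp1. Among all 12921 genes tested, 33.5% lay above and 28.7% below, so these counts are near the background. The 1 gene of the 5 past the thresholds was Wnt5a, which had entered the test through MT alone, and 11.0% of all genes were called higher and 6.86% lower. A call required an absolute log2FC over 0.5 at an adjusted p under 0.05. The median log2FC was 0.58 for these 5 members and 0.07 for all genes. Beside these differences, the 12 fibroblast markers summed to at most 888 CPM in MB and to at least 15050 CPM in MT, and their part in them was not tested.

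Among the other 94 genes of the pathway, 62 were tested between MT and MB, of which 14 rose and 5 fell. Of all genes tested, 11.0% were called higher and 6.86% lower. Of the 62, 14 passed the filter on low counts through MT alone and 2 through MB alone. That is, both libraries of that group but not both of the other reached the cutoff. The filter thus favoured genes that differ, without requiring a difference. Among the genes that rose, Wls, Porcn and Dkk2 alone passed the filter in both groups, and among those that fell, Ccnd1, Myc and Lgr6 did, whereas Wnt7b and Apcdd1 passed through MB alone. The counts by role below therefore describe these libraries and are no support for a difference between roles. Called genes numbered 12 without MB replicate 1, and 25 without MT replicate 2. None of the 13 cytoplasmic transducers and none of the 13 nuclear effectors passed in edgeR's test, with 1 and 2 of them at an unadjusted p under 0.05, and the difference from the other roles was not tested.

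Of 10 other secreted inhibitors, 4 could be tested, and all 4 were called higher, whereas Sfrp1 did not pass. Among all genes tested, 11.0% were called higher. The fibroblast markers were higher in the same MT libraries, and their part in these calls was not tested. Frzb, also called Sfrp3, had 17 and 7 counts in MB and 1145 and 339 in MT, with a log2FC of 5.45 (SE 0.71, edgeR adjusted p = 0.000777). Sfrp4 had 3 and 8 counts in MB and 837 and 174 in MT, and Dkk2, which acts at the coreceptors and ranks among the inhibitors with the highest level in GAS, had 67 and 62 in MB and 1340 and 412 in MT, with log2FC of 6.02 (SE 0.82) and 3.30 (SE 0.55). Wif1, which binds Wnt ligands directly, was at 0 in MB and had 69 and 22 counts in MT. Its mean level in MT was 10.4-fold the limit of 3 counts in an MB library. This fold is that of the mean and not of each MT library. Frzb, Sfrp4 and Wif1 passed the filter through MT alone. Sfrp1 accounted for 58.1% and 65.0% of the summed RPKM of 13 secreted inhibitors in MB and for 1.79% and 9.24% in MT. That sum was 7.51 and 6.78 RPKM in MB, and 80.5 and 36.0 RPKM in MT.

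**Figure D3:**
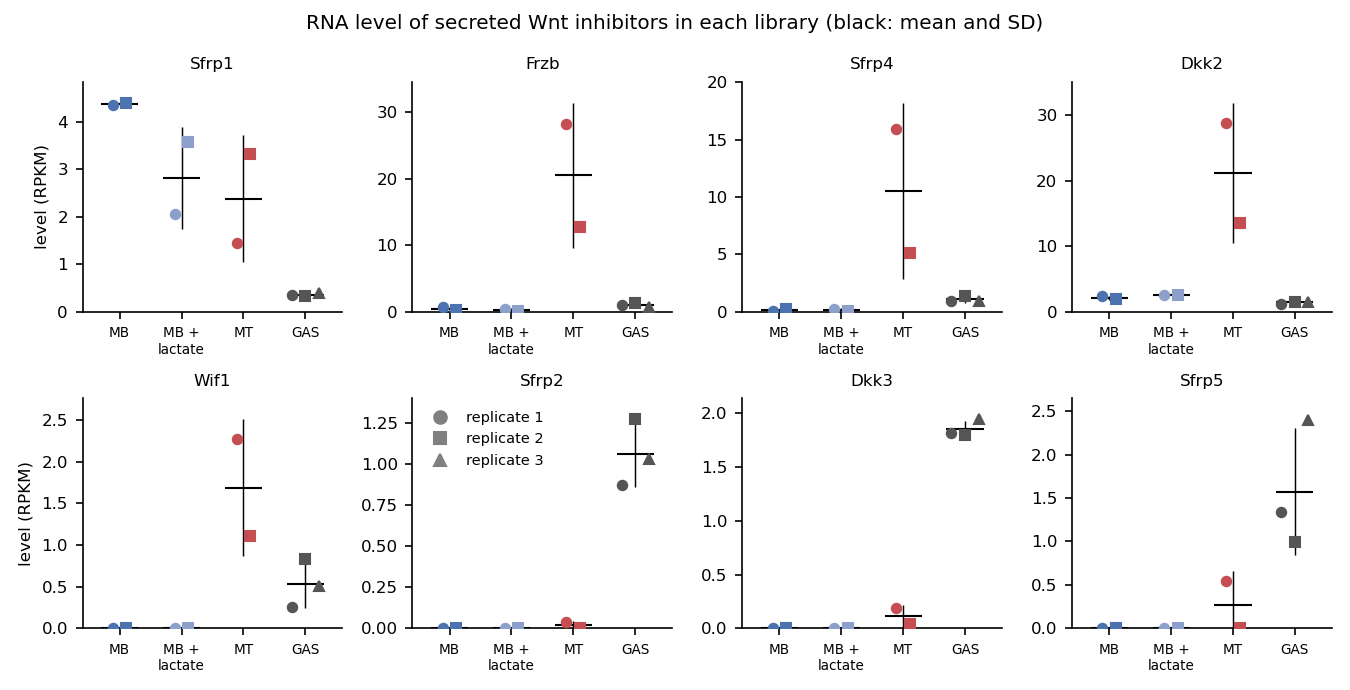
RNA level (RPKM, linear axes from 0) of 8 secreted Wnt inhibitors in MB, lactate-treated MB, MT and GAS, with a symbol per library and the mean and SD in black. Frzb, Sfrp4, Dkk2 and Wif1 were highest in MT, Sfrp1 was highest in MB, and Sfrp2, Dkk3 and Sfrp5 were highest in GAS.

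The genes for Wnt secretion were both higher in MT. Wls, the carrier that brings Wnt ligands to the cell surface, had 1080 and 2259 counts in MB and 13621 and 8031 in MT (log2FC 2.36, SE 0.55, edgeR adjusted p = 0.0147). Porcn, which attaches the lipid to Wnt ligands and was named after its values were seen, had 44 and 37 counts in MB and 448 and 700 in MT (log2FC 3.59, SE 0.60). In GAS, Wls was at 1.58 ± 0.207 RPKM (SD, n = 3), against 118 ± 8.28 RPKM (SD, n = 2) in MT.

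At the receptor, the coreceptors Lrp5 and Lrp6 did not pass. Lrp5 had 136 and 38 counts in MB and 57 and 25 in MT (log2FC -1.54, SE 0.78, edgeR adjusted p = 0.199), and Lrp6 had 56 and 171 in MB and 485 and 248 in MT (log2FC 1.35, SE 0.58, edgeR adjusted p = 0.134). Rspo3, a secreted amplifier of Wnt signalling, had 1 count in each MB library and 172 and 70 in MT, a 95.9-fold ratio of summed counts with a 95% interval of 26.3 to 796. This interval and that of Apcdd1 below cover counting error only, not the spread between libraries. Rspo2, a relative of Rspo3, and the Wnt5a receptor Ror1, both named after their values were seen, had 8 and 16 counts in MB against 250 and 29 in MT, and 1 and 3 against 72 and 16. Rspo3, Rspo2 and Ror1 passed the filter through MT alone, and the calls of Rspo2 and Ror1 were lost with the replicate block and removal of the GC and length trend (edgeR adjusted p = 0.0919 and 0.0708) and with crossed replicate numbers (edgeR adjusted p = 0.0669 and 0.0508). Lgr6, a receptor of R-spondins, fell from 296 and 441 counts to 192 and 63 (log2FC -1.96, SE 0.53, edgeR adjusted p = 0.0292), and its adjusted p was 0.0505 with the block and trend removal. Apcdd1, a membrane-bound inhibitor that entered the test through MB alone, went from 109 and 57 counts to 2 in each MT library, which is a 52.4-fold ratio of MB over MT with a 95% interval of 20.1 to 194. Wnt7b, the leading ligand of MB, also entered through MB alone and went from 187 and 122 counts to 17 and 3 (log2FC -4.41, SE 0.79, edgeR adjusted p = 0.00446).

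Target genes moved in both directions. Axin2, a feedback inhibitor widely used as a readout of β-catenin, was at 0 in MB and had 53 and 19 counts in MT. Its mean level in MT was 8.35-fold the limit of 3 counts in an MB library. This fold and that of Celsr3 below are those of the mean and not of each MT library. Nkd2, which binds Dishevelled, had 0 and 3 counts in MB and 248 and 444 in MT, a ratio of 183 with a 95% interval of 62.3 to 888. This interval and that of Daam2 below cover counting error only, not the spread between libraries. Ccnd1, which encodes cyclin D1 and drives the cell cycle, fell from 9149 and 5394 counts to 486 and 405 (log2FC -4.37, SE 0.59, edgeR adjusted p = 0.00099), and Myc fell from 1998 and 1570 to 444 and 191 (log2FC -2.92, SE 0.48). Ctnnb1, the gene of β-catenin, had 2055 and 1014 counts in MB and 1155 and 726 in MT and did not pass (log2FC -1.10, SE 0.49, edgeR adjusted p = 0.15). Axin2 and Nkd2 passed the filter through MT alone. Of 9 polarity genes tested, 3 were called higher, beside 11.0% of all genes tested, and all 3 passed the filter through MT alone. Celsr3, a cadherin, went from 0 in MB to 53 and 10 counts in MT, with a mean level of 6.95-fold the limit. Daam2, a formin that binds Dishevelled, went from 3 and 0 to 239 and 131 counts, a ratio of 97.7 with a 95% interval of 33.2 to 476. The third was Prickle2, named after its values were seen, with 4 and 1 counts in MB and 44 and 31 in MT, and its call was lost with the block and trend removal (edgeR adjusted p = 0.0735) and with crossed numbers (edgeR adjusted p = 0.0676).

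**Figure D4:**
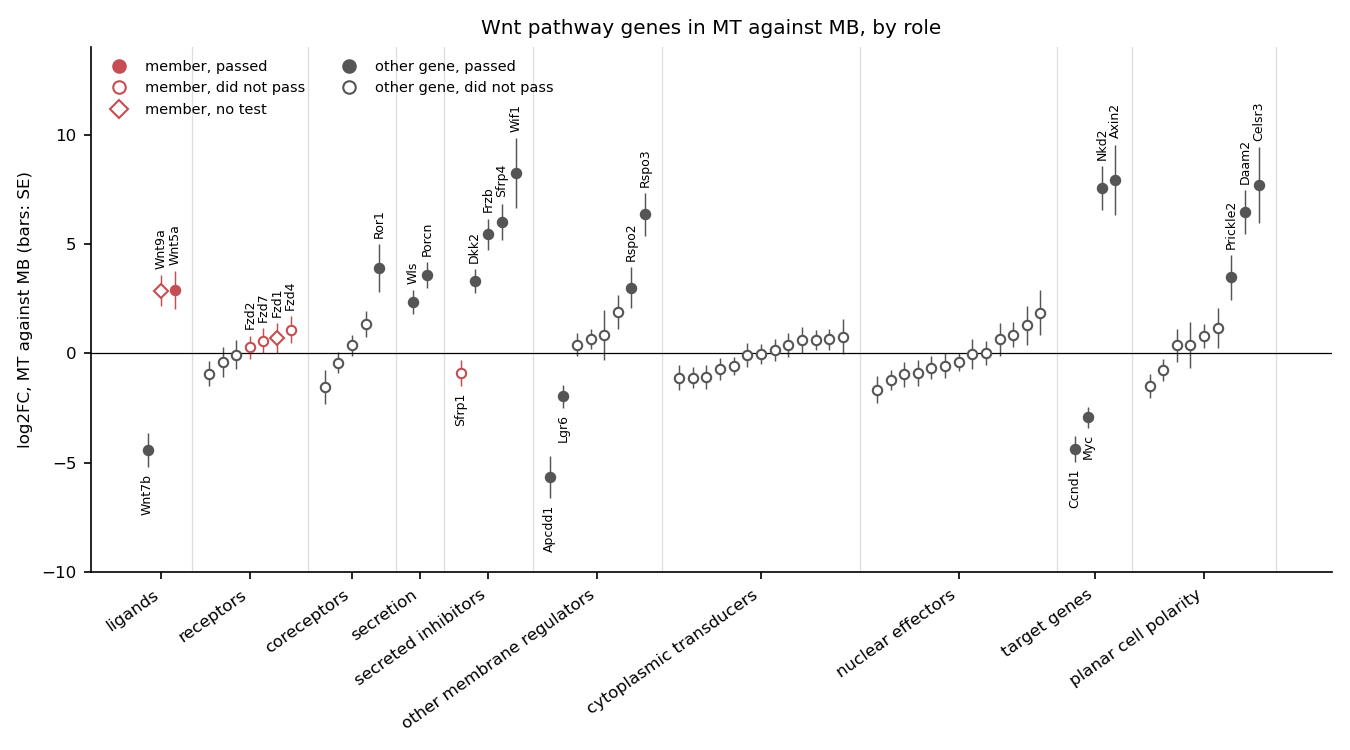
Fitted log2FC of MT against MB with SE bars for the tested Wnt pathway genes, ordered within each role, with members in red, genes past the thresholds filled, and Wnt9a and Fzd1 as open diamonds without a test. The bars of Wnt9a and Fzd1 come from the same fit and are a description. Wnt5a was the filled member, the open receptor points lay between -0.93 and 1.09, and values of genes with 3 counts or fewer per MB library depend on the prior count of the fit.

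Lactate-treated MB were compared with the same control MB libraries that served for MT, so both comparisons share them. The question was which genes respond when MB are given lactate. Of the 8 members picked for their family, 4 could be tested, and none passed a nominal p under 0.01 with an absolute log2FC over 0.5. Among all 11804 genes tested, 0% passed, and 5 had an unadjusted p under 0.05 in edgeR's quasi-likelihood test, none of them among the 4 members. With the replicate block added to that model, 166 genes had an unadjusted p under 0.05 and 13 passed. Same-numbered libraries deviated together (Pearson r = 0.705), which the model with group alone counts as error. Its 0 calls are therefore weak evidence of no response. The DESeq2 Wald test and edgeR's likelihood ratio test also called 0 of the 4 members. The log2FC was -0.33 for Fzd2, -0.37 for Fzd4, -0.61 for Fzd7 and -0.62 for Sfrp1, with SE of 0.49, 0.53, 0.65 and 0.52.

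Of 6 tested members, Fzd1 and Sfrp1 were lower after lactate in both replicate numbers. So were 22 of 48 other pathway genes and 2690 of all 11804 genes tested. Fzd1 was the only member lower by over 0.5 on the log2 scale in both replicate numbers. Fzd1 had 51 and 85 counts in control MB and 13 and 22 in lactate-treated MB, or 1.59 and 2.31 RPKM against 0.548 and 0.891 RPKM. Both lactate libraries lay below both control libraries. The log2 ratio of CPM + 1, lactate over the control of the same number, was -1.22 for replicate 1 and -1.17 for replicate 2, and the fitted log2FC was -1.44. As Fzd1 was picked on such a change, these values are a description. Of all genes tested, 0.932% were lower and 0.746% higher by over 0.5 in both replicate numbers, and 7.56% had both lactate libraries below both control libraries. By RPKM, Fzd1 made up 8.45% and 17.8% of the Frizzled receptors in control MB and 5.37% and 6.48% after lactate.

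The lactate libraries of Sfrp1 both lay below the controls as well. With 146 and 169 counts in control MB and 51 and 92 after lactate, its level was 19.1 and 19.3 CPM against 9.02 and 15.6 CPM, and the log2 ratio in replicate 2 was -0.29. The remaining members differed in sign between the replicate numbers. The log2 ratios were -0.57 and 0.22 for Wnt9a, -0.55 and 0.02 for Fzd2, -0.90 and 0.25 for Fzd4, and -1.58 and 0.38 for Fzd7. Wnt5a, which did not pass the filter, had 11 and 4 counts in control MB and 0 and 6 after lactate. Over the 4 tested members picked for their family, the median log2 ratio was -0.95 in replicate 1 and 0.14 in replicate 2, beside -0.02 and -0.00 for all genes. Lactate replicate 1 and control replicate 1 had a mean transcript GC content of 51.8% and 51.9%, against 49.2% and 49.0% in replicate 2, so libraries of a number were alike in this property.

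**Figure D5:**
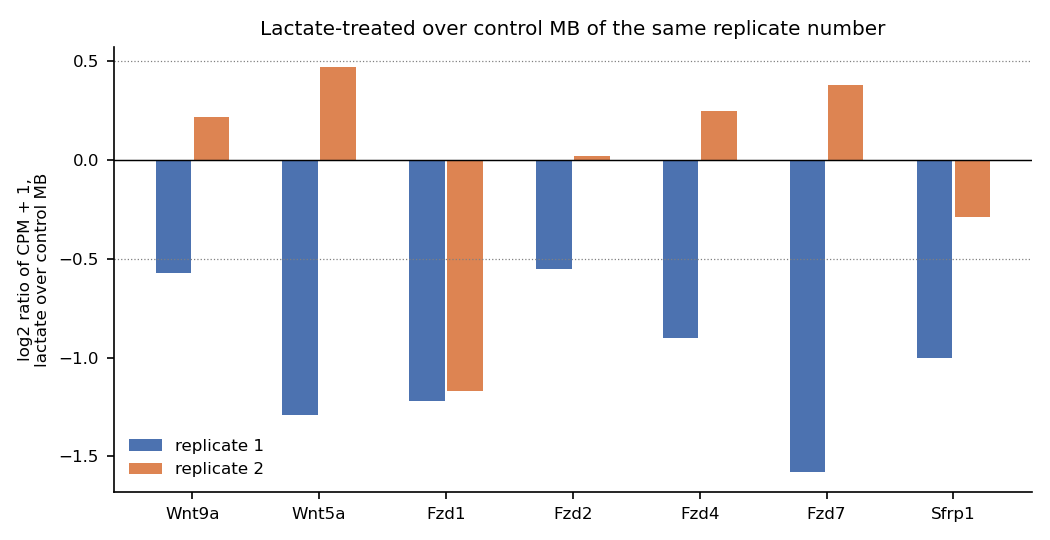
Log2 ratio of CPM + 1 in lactate-treated over control MB of the same replicate number, for the 7 members above 3 counts in at least 1 of these libraries, with dotted lines at 0.5 and -0.5. Fzd1 was below -0.5 in both replicates, Sfrp1 was below 0 in both, and the other 5 members were below 0 in replicate 1 and above 0 in replicate 2.

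None of the other 48 pathway genes tested after lactate passed either in edgeR's quasi-likelihood test, the likelihood ratio test or the DESeq2 Wald test. In control and lactate-treated MB, the target Axin2 stayed at 0 counts in all 4 libraries. Ccnd1 had 9149 and 5394 counts in control MB and 5736 and 3224 after lactate, with log2 ratios of -0.24 and -0.17. Ctnnb1, with 2055 and 1014 against 1111 and 625 counts, had log2 ratios of -0.45 and -0.12, and Wls, with 1080 and 2259 against 629 and 1529, had -0.34 and 0.01.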

How the data were processed

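RNA was sequenced from GAS and cultured cells, and the authors deposited raw read counts per gene. Per the labels, reads were checked with FastQC, trimmed with Trim Galore 0.6.6, aligned to mm10 with HISAT2 2.2.1 and counted with featureCounts of Subread 2.0.1. Strand use and annotation release are not given in the sources used here. Members and gene lists were chosen with earlier results of these data known. Symbols and exonic lengths came from GENCODE M21, which held 36429 of the GAS and 45229 of the culture identifiers.

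CPM used TMM factors, computed for GAS and culture separately. Both comparisons used edgeR 4.0.16 (quasi-likelihood test, filter on low counts, TMM, group alone in the model, Benjamini-Hochberg adjustment over all genes tested), on the libraries compared, in R 4.3.3. This was tested on simulated data with known, large changes in genes with many counts, which covers neither small changes nor genes with few counts. The SE of a log2FC is its absolute value divided by the square root of edgeR's F statistic, so it carries the test. Alternatives were RLE factors, DESeq2 1.42.0, edgeR's likelihood ratio test, other filters, a replicate block with and without removal of a GC and length trend, all 6 cultured libraries in 1 fit, another log2FC threshold, other pseudocounts and leaving out each library. Crossed replicate numbers were added after the data were seen. Besides members, the text names called pathway genes with the largest changes (up to 8 per direction, groups not overlapping), Ctnnb1, Axin2, Lrp5, Lrp6 and Wls, pathway genes called after lactate, and the 5 other ligands, receptors and inhibitors with the highest RPKM in GAS.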

Additional observations from a re-analysis of the deposited data

How the results depend on the processing

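With 2 libraries a group, 1 library could decide a value. In MT against MB, the 1 call among members picked for their family became 0 without a filter on low counts, with at least 10 counts in every library, with the replicate block and removal of the GC and length trend, with all 6 cultured libraries in 1 fit, and with crossed replicate numbers, and leaving out a library gave 0 to 1. The 19 other pathway genes called became 6 with at least 10 counts in every library, where 44 of them were left to test, and 12 to 25 when a library was left out. Over all genes, the 2312 calls became 1444 with that filter and 1232 to 4921 when a library was left out. Leaving out a library gave a log2FC of -0.55 to 1.33 for Fzd1, -0.23 to 0.74 for Fzd2 and 1.30 to 3.58 for Wnt9a. For lactate, it gave -0.63 to 0.20 for Wnt9a, -0.67 to 0.23 for Fzd2 and -0.67 to 0.09 for Fzd4. No member picked for its family was called after lactate in any fit. The 0 calls over all genes became 1 with DESeq2, 1 without a filter, 13 with the replicate block, 93 with the block and trend removal, and 1 to 177 when a library was left out. With the block and trend removal, 1 other pathway gene was called lower, Kremen1. The 50 alternative values for GAS stayed within 1 SD. For those that leave out 1 of 3 libraries this was fixed in advance, so it shows nothing there. Causes were not tested.

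Libraries of the same number deviated together across genes after lactate (Pearson r = 0.705) but not in MT against MB (r = -0.132), and the labels do not say what a number marks. With the replicate block, calls were 1 among family members, 19 among other pathway genes and 2271 overall in MT against MB. After lactate, the block gave 0 calls among family members and 0 among other pathway genes. With crossed numbers, calls were 0, 16 and 2059 in MT against MB and 0 overall after lactate.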

Other observations

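More Wnt ligands were counted in MT replicate 1 than in any other library, with 16 of 19 above 3 counts, against 7 in MT replicate 2, 4 and 5 in control MB, 3 and 3 in lactate-treated MB and 8 to 11 in GAS. This excess was not particular to ligands. Over all genes, 28599 had a count in MT replicate 1, against 17965 in MT replicate 2 and 15548 to 17315 in the 4 MB libraries. Of the 104 pathway genes, 9 had more than 3 counts in MT replicate 1 and no count in the other cultured libraries, a count not made over all genes. None of these 9 was a member. Among the 9 were Wnt3a with 94 counts, Wnt16 with 34, Wnt7a with 24 and Wnt8a with 4. The others were Rspo4 with 54 counts, Sostdc1 with 46, Notum with 14, Sfrp5 with 13 and Ror2 with 5. In GAS, Wnt3a, Wnt7a and Wnt8a had no count in 3 libraries, whereas Sfrp5 had 50, 37 and 88 counts. The 19 ligands summed to 13.5 RPKM in MT replicate 1 and to 21.9 RPKM in MT replicate 2.

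Of the ligands, receptors and secreted inhibitors that were not members, those with the highest level in GAS were Fzd9, Sfrp5, Dkk2, Wnt11 and Sfrp4. Sfrp5 was at 1.57 ± 0.735 RPKM (SD, n = 3), with replicate 3 above the other replicates. Dkk2 was at 1.43 ± 0.156 RPKM (SD, n = 3), Wnt11 at 1.08 ± 0.104 RPKM (SD, n = 3) and Sfrp4 at 1.08 ± 0.286 RPKM (SD, n = 3). Wnt11, a ligand of β-catenin-independent signalling, had 0 counts in the 4 MB libraries and 45 and 5 in MT.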
